A study of Mus musculus with 3 samples.

Results

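Interferon stimulated genes are the genes that cells switch on when interferons, the secreted alarm proteins of antiviral defence, bind their receptors. They were followed here through a list of 45 mouse genes, made up of 33 genes typically induced by type I interferon, 11 genes led by interferon gamma (8 GTPases, 2 immunoproteasome subunits and the peptide transporter gene Tap1) and Irf1, which answers to both. Probes were assigned to genes by their RefSeq accession. This gave 58 probes for 43 of the 45 genes, out of 55681 probes and 20284 named genes in all. No probe matched Mx1 or Mx2, which were not analysed here. All 43 remaining genes had a probe well above background on every array, as did 13626 of the named genes, and each gene was read from its brightest such probe.

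The livers came from c57BL6/J mice, and the study's methods describe young adult males. Every mouse had received human YAP, a transcriptional coactivator restrained by the Hippo pathway, by hydrodynamic gene delivery, in which a large volume injected into the tail vein carries plasmid into hepatocytes. The groups were YAP (WT), YAP (1SA) and YAP (2SA), the latter 2 being active mutants, each sampled at 2 days. The plasmid drove Myc-tagged YAP from a hepatocyte-specific albumin promoter with an AFP enhancer and reached only some of the hepatocytes, so each liver was a mosaic. All 3 liver samples thus shared the injection and a YAP transgene, and no uninjected liver was among them. Each group held 1 Cy3-labelled one-colour Agilent array. Whether its RNA came from 1 animal or a pool was not given, and the title of the YAP (WT) sample carries the number 2. A difference between arrays therefore had no replicate check, no test was run, and a difference between YAP forms cannot be told apart from a difference between liver samples.

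Type I interferon acts through a receptor whose kinases activate a transcription factor complex that holds STAT2 and IRF9 and binds the interferon-stimulated response element (ISRE). Interferon gamma acts through its own receptor and mainly at the gamma-activated site (GAS), and many GTPases and antigen-processing genes respond to it. In the liver, hepatocytes, Kupffer cells and infiltrating leukocytes can all carry these transcripts. In RNA of whole liver, fewer cells of a type and less RNA per cell cannot be told apart.

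The promoters of several members hold the ISRE core, and a few are shown because members with very similar core letters differed widely in their values below. RefSeq promoter windows (build GRCm38.p6, 250 bases before to 50 bases after each start) were found for 34 of the 45 members. The core was searched as GAAANNGAAA on both strands, each hit counted even where hits overlapped. It was present for 18 of the 34 members (52.9%), against 3.99% of 27025 genes in the promoter table. By class, 12 of 24 type I members and 6 of 9 interferon gamma members held it. The GAS core, searched as TTCNNNGAA on both strands, was present for 11 of the 34 members (32.4%), against 9.55% of all genes. ISRE and GAS hits were searched separately and may overlap. The windows below run 5′ to 3′ along the gene's strand, 60 bases each, with ISRE cores on either strand in capitals.
Isg15, minus strand, chr4:156200850-156200909: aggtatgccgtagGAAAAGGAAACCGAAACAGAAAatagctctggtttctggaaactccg
Oas1a, minus strand, chr5:120907526-120907585: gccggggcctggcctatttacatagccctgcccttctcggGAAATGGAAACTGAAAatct
Oas3, minus strand, chr5:120777700-120777759: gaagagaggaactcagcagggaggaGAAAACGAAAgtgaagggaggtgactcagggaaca
Rsad2, minus strand, chr12:26456538-26456597: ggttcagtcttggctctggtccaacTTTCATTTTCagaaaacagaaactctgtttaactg
Gbp2, plus strand, chr3:142620579-142620638: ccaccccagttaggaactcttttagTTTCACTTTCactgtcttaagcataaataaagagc
Gbp7, plus strand, chr3:142530258-142530317: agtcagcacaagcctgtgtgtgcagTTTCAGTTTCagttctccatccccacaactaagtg
Tgtp1, minus strand, chr11:48992289-48992348: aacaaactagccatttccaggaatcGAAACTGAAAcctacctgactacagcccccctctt
Igtp, plus strand, chr11:58199496-58199555: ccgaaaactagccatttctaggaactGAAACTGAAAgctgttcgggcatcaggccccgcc
Stat2, plus strand, chr10:128270251-128270310: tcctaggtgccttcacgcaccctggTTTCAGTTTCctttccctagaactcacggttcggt

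Each mutant liver sample was set against the YAP (WT) liver sample first. On the YAP (1SA) array 34 of the 43 measured members lay below YAP (WT), against 6851 of all 13626 measured genes. The median difference of the members was -0.24 (log2), against -0.0017 over all genes. On the YAP (2SA) array 26 of 43 members lay above YAP (WT), against 5938 of all genes, with a median of 0.10 against -0.03 over all genes. Differences are of log2 intensity after each array was scaled to its 75th percentile. A difference of 0.21 is 2 times the SD that repeated spots give, and 23 of 43 members lay below YAP (WT) by more than that on the YAP (1SA) array, against 19.1% of all genes, and 3 above it, against 16%. On the YAP (2SA) array 18 of 43 lay above YAP (WT) by more than 0.21, against 15.6% of all genes, and 4 below, against 19.4%.

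At a 2-fold threshold, 6 members were lower on YAP (1SA) than on YAP (WT), which is 14.0% of the members against 1.14% of all measured genes, and 0 were higher, against 0.727%. The 6 were Tgtp1, Oasl2, Ifi44, Gbp2, Isg15 and Oas1a. Between YAP (2SA) and YAP (WT) 0 members were 2-fold higher, against 1.12% of all genes, and 0 were 2-fold lower, against 0.543%. Rsad2, at 0.93, was the farthest from YAP (WT) on the YAP (2SA) array.

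The largest separation was between the mutants. On the YAP (2SA) array 31 of 43 members lay above the YAP (1SA) array, against 6216 of all 13626 measured genes. The median difference of the members was 0.37 (log2), against -0.03 over all genes. At least 2-fold higher were 12 members (27.9%), against 2.47% of all measured genes, and 0 were at least 2-fold lower, against 1.12%. These comparisons share arrays, so a low value on YAP (1SA) enters both its comparison with YAP (WT) and that with YAP (2SA). YAP (1SA) gave the lowest of the 3 values for 29 members (67.4%, against 34.4% of all genes), and YAP (2SA) gave the highest for 24 (55.8%, against 31.3%). Both held together for 22 members (51.2%, against 20.0%).

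**Figure D1:**
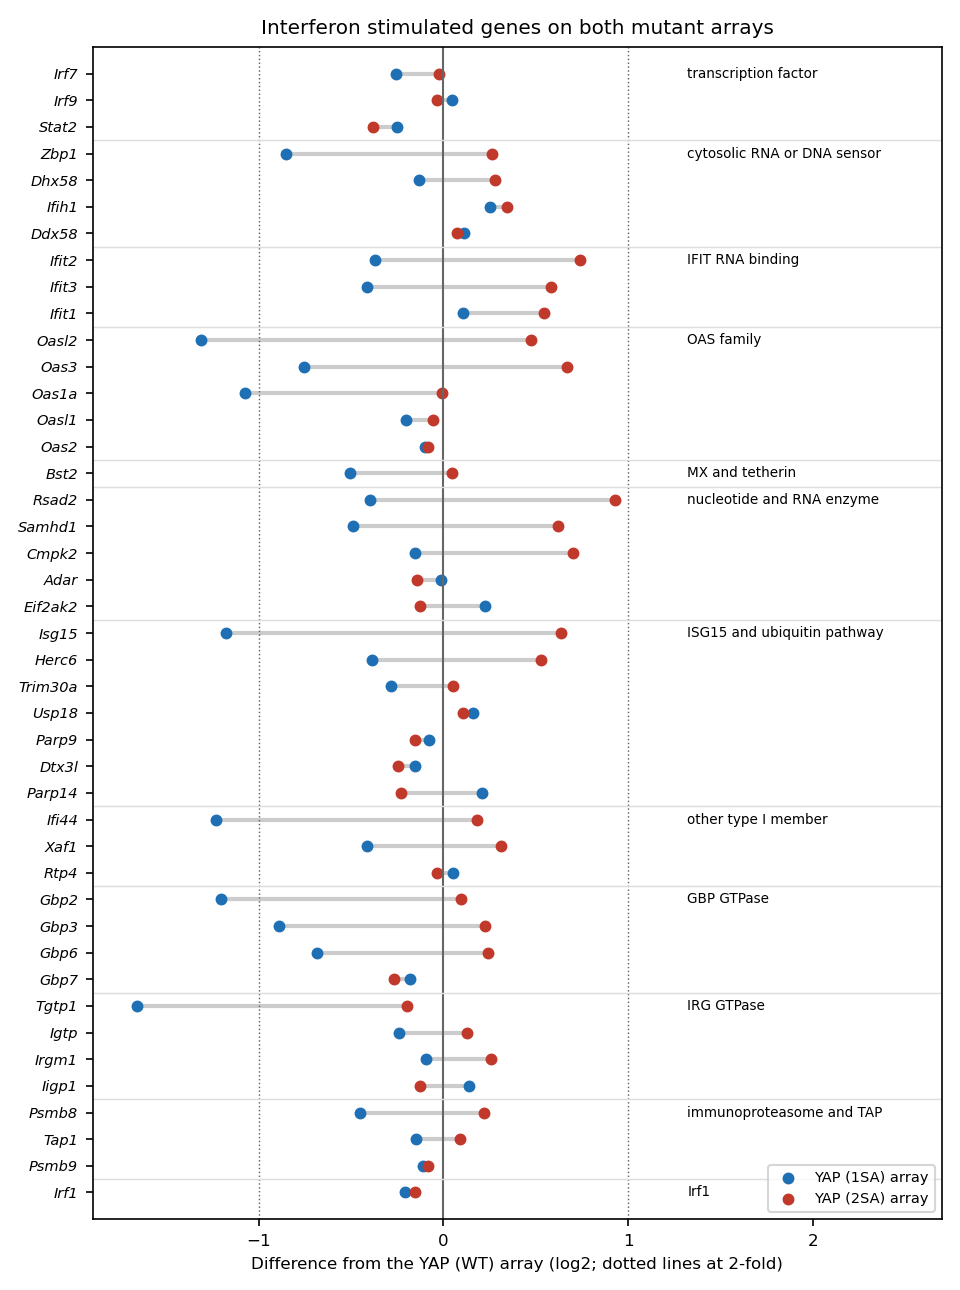
Each row is 1 of the 43 measured members, grouped by role, and the horizontal axis is its difference from the YAP (WT) array in log2 units, with YAP (1SA) in blue, YAP (2SA) in red and dotted lines at 2-fold. Blue points reach below -1 for 6 members, no red point passes either dotted line, and members such as Usp18, Rtp4, Irf9 and Oas2 have both points close to 0.

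Type I and interferon gamma members showed similar medians. For the 31 measured type I members the median difference was -0.25 for YAP (1SA) minus YAP (WT), 0.11 for YAP (2SA) minus YAP (WT) and 0.41 for YAP (2SA) minus YAP (1SA). For the 11 interferon gamma members the same medians were -0.24, 0.10 and 0.37. At least 2-fold higher on YAP (2SA) than on YAP (1SA) were 9 of 31 type I members and 3 of 11 interferon gamma members. Within the interferon gamma class the 8 GTPases had a median of 0.65 between the mutants, while the immunoproteasome subunits and Tap1 had a median of 0.24. For YAP (2SA) minus YAP (WT) the type I members ranged from -0.38 to 0.93 and the interferon gamma members from -0.27 to 0.26.

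**Figure D2:**
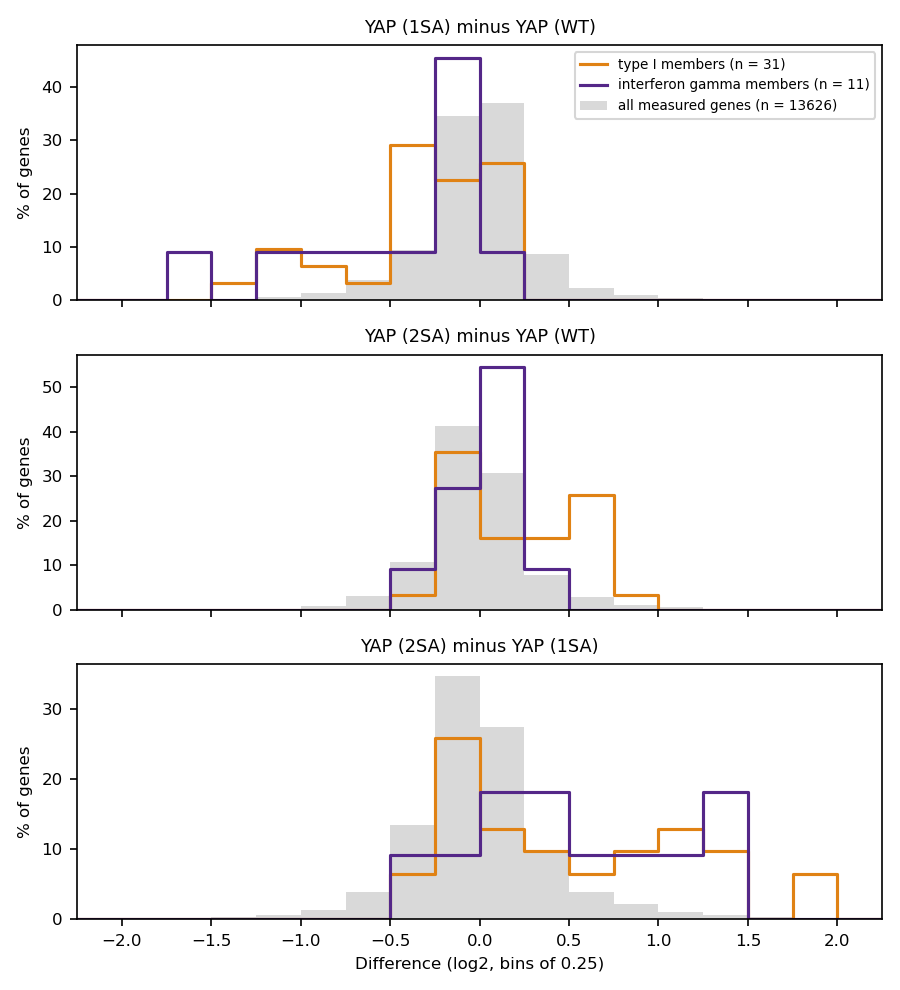
The panels show the 3 comparisons, each with the difference in log2 units on the horizontal axis in bins of 0.25 and the percent of genes on the vertical axis, for all 13626 measured genes (grey), 31 type I members (orange) and 11 interferon gamma members (purple). Member outlines rise above the grey bars over part of the left side for YAP (1SA) minus YAP (WT). They do so over part of the right side for YAP (2SA) minus YAP (1SA), while many members of either class stay over the centre.

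The 3 transcription factors of the type I list had a median difference between the mutants of -0.08, and none was highest on YAP (2SA) after scaling. The intensities printed here and below are those before scaling between arrays. Stat2 encodes a subunit of the type I complex that carries its activation domain. Its intensity was 2070 on YAP (WT), 1649 on YAP (1SA) and 1747 on YAP (2SA), so YAP (WT) was the highest. It lay 0.25 above YAP (1SA) and 0.38 above YAP (2SA), the latter the lowest value of any member in that comparison, and the difference between the mutants was -0.13. Irf9 encodes the DNA-binding subunit of that complex and read 2239, 2196 and 2401 in the same order, a difference of -0.08 between the mutants after scaling. Irf7, the factor that amplifies type I interferon production, read 3611 on YAP (WT), 2861 on YAP (1SA) and 3901 on YAP (2SA), with YAP (1SA) at -0.26 from YAP (WT) and the mutants differing by 0.23. Irf1, which is induced by both kinds of interferon, read 4448, 3649 and 4400 and differed by 0.06 between the mutants. None of these 4 genes was 2-fold apart in any comparison.

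The cytosolic sensors detect foreign or misplaced nucleic acid. Ddx58 (RIG-I), Ifih1 (MDA5) and Dhx58 (LGP2) differed between the mutants by -0.04, 0.09 and 0.41. Zbp1, a sensor of Z-form nucleic acid linked to necroptosis, was the exception. Its intensity was 3612 on YAP (WT), 1898 on YAP (1SA) and 4765 on YAP (2SA). YAP (2SA) was 2.17-fold above YAP (1SA) after scaling (log2 difference 1.12), with most of the gap on the YAP (1SA) side of YAP (WT). The mean of both Zbp1 probes put that difference at 0.98, just under 2-fold.

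The IFIT proteins bind viral RNA that lacks the host cap. Ifit2 read 184.2 on YAP (WT), 135.3 on YAP (1SA) and 338.0 on YAP (2SA). YAP (2SA) was 2.16-fold above YAP (1SA), a difference of 1.11 that became 0.85 with normexp background correction. Ifit3 missed the 2-fold threshold narrowly at 1.99-fold, reading 3065, 2182 and 5041. Its probe may also detect the near-identical Ifit3b, whose own probe differed by 0.70. Ifit1 differed by 0.44. All 3 IFIT genes were highest on YAP (2SA), at 0.55 to 0.74 above YAP (WT).

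Enzymatically active members of the OAS family make the second messenger that activates RNase L. All 5 measured family members were lowest on YAP (1SA), and their median difference between the mutants was 1.07. Oasl2 read 3879 on YAP (WT), 1481 on YAP (1SA) and 5921 on YAP (2SA). YAP (1SA) was 1.31 (log2) below YAP (WT) and YAP (2SA) was 3.45-fold above YAP (1SA). Oas1a read 14036 on YAP (WT), 6323 on YAP (1SA) and 15358 on YAP (2SA). Its YAP (2SA) value matched YAP (WT) after scaling (-0.0056), and YAP (1SA) alone was lower, by a difference of -1.07 that became -0.99 with normexp. Oas3 was dim, at 53.5, 30.1 and 93.7, and its difference between the mutants of 1.43 became 0.57 with normexp. Oas2 and Oasl1 differed between the mutants by 0.02 and 0.15 only. Oas1g, a near-identical relative of Oas1a outside the list, was well above background on the YAP (1SA) array only, at 61.6 there against 3.26 on YAP (WT) and 2.53 on YAP (2SA). Against the lowest measured signal of the other arrays it was at least 5.19-fold higher on YAP (1SA) than on YAP (WT) and at least 12.01-fold higher than on YAP (2SA), opposite in direction to Oas1a. The Oas1g probe was read from 1 spot an array, so its YAP (1SA) value had no check from repeated spots. What the Oas1a and Oas1g probes share was not tested.

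Among enzymes acting on nucleotides and RNA, Rsad2, Samhd1 and Cmpk2 were high on YAP (2SA), whereas Adar and Eif2ak2 were not. Rsad2 encodes viperin, which makes a chain-terminating nucleotide, and read 1130 on YAP (WT), 814.4 on YAP (1SA) and 2369 on YAP (2SA). Samhd1 encodes an enzyme that breaks down deoxynucleotides, and read 1352, 913.3 and 2284 in that order. The mutants differed by 1.33 for Rsad2 and 1.11 for Samhd1, and in both the larger step was above YAP (WT). Cmpk2, a mitochondrial nucleotide kinase whose gene neighbours Rsad2, was 0.70 above YAP (WT) on YAP (2SA) and 0.86 above YAP (1SA). Adar, which edits RNA, differed between the mutants by -0.13, and Eif2ak2, the kinase PKR, by -0.35.

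ISG15 is a ubiquitin-like protein attached to other proteins. Isg15 showed the largest difference between the mutants of any member. Its intensity was 22008 on YAP (WT), 9218 on YAP (1SA) and 37547 on YAP (2SA). YAP (1SA) was 1.18 (log2) below YAP (WT), YAP (2SA) was 0.64 above it, and the mutants differed 3.51-fold. A dimmer Isg15 probe gave a difference between the mutants of 1.90 beside 1.81 for the brighter. The other members tied to ISG15 or ubiquitin spread widely. Herc6, the mouse ligase for ISG15, differed by 0.92, although its dimmer probe gave 0.34. Usp18, which removes ISG15 and dampens the receptor, differed by -0.05. Trim30a differed by 0.33. Parp9, Dtx3l and Parp14, ADP-ribosylation partners, differed by -0.08, -0.09 and -0.44, and the last of these was the lowest value among the members.

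Bst2, or tetherin, which holds budding virus at the cell surface, differed between the mutants by 0.55. Ifi44 read 1629 on YAP (WT), 658.6 on YAP (1SA) and 2029 on YAP (2SA). It was 1.23 (log2) lower on YAP (1SA) than on YAP (WT), and YAP (2SA) was 2.66-fold above YAP (1SA). The proapoptotic Xaf1 differed between the mutants by 0.73, and Rtp4, a chaperone of membrane receptors, by -0.09.

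The guanylate-binding proteins (GBP) attack the vacuoles and membranes of intracellular pathogens. Gbp2 read 1295 on YAP (WT), 531.6 on YAP (1SA) and 1522 on YAP (2SA), and Gbp3 read 2019, 1032 and 2592. For both, YAP (1SA) stood apart below the other arrays. The mutants differed 2.47-fold for Gbp2 and 2.17-fold for Gbp3. Gbp6 was just under the threshold, at 0.93, and its second probe gave 0.57. Gbp7 differed by -0.09 and was the only measured GBP of the list that was not lowest on YAP (1SA).

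The IRG proteins are a related GTPase family. Tgtp1 was dim, at 75.7 on YAP (WT), 22.7 on YAP (1SA) and 72.7 on YAP (2SA). YAP (1SA) was 1.66 (log2) below YAP (WT), a difference of -0.51 with normexp, and 1.46 below YAP (2SA), a difference of 0.44 with normexp. The near-identical Tgtp2 is outside the list. Its probe read 6758, 4085 and 11700, with a difference between the mutants of 1.31, and the 2 genes may share signal. Igtp was read from 10 spots an array, which gave a difference between the mutants of 0.37 ± 0.02 (SE over spots, not over animals). Irgm1 differed by 0.35 and Iigp1 by -0.26.

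Psmb8 and Psmb9 encode subunits of the immunoproteasome and Tap1 a subunit of the transporter that loads peptides for MHC class I. Psmb8 read 7825 on YAP (WT), 5417 on YAP (1SA) and 9996 on YAP (2SA), the mutants differing by 0.67. Psmb9 read 7001, 6158 and 7253 and differed by 0.02. Tap1, also on 10 spots, read 496.9, 425.0 and 581.7 and differed by 0.24 ± 0.02 (SE over spots). All 3 were lowest on YAP (1SA), by 0.11 to 0.45 below YAP (WT), and none was 2-fold apart in any comparison.

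**Figure D3:**
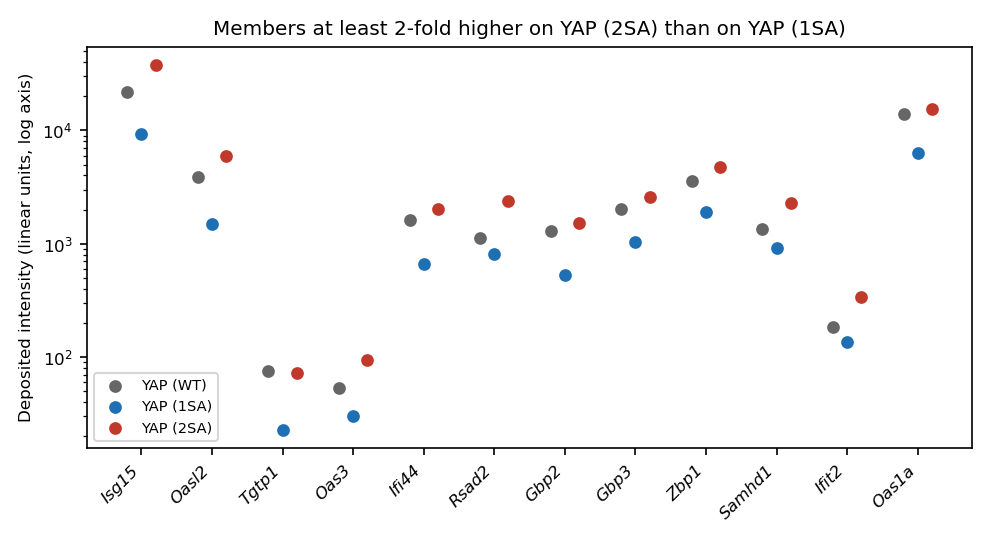
The 12 members at least 2-fold higher on YAP (2SA) than on YAP (1SA) are on the horizontal axis, with the deposited intensity on each array, before scaling between arrays, on a log vertical axis (YAP (WT) grey, YAP (1SA) blue, YAP (2SA) red; 1 array each). YAP (1SA) is the lowest point for all 12, and heights are to be compared within a gene only.

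The 12 members past 2-fold did not all stand the same way around YAP (WT). For 9 of them more than 50% of the span between the mutants lay below YAP (WT). The share was 100.5% for Oas1a, 92.5% for Gbp2, 87.1% for Ifi44 and 65.0% for Isg15. It was 113.3% for the dim Tgtp1, whose YAP (2SA) value lay at -0.19 from YAP (WT), within the spot limit of 0.21. The brighter probe of the near-identical Tgtp2 put YAP (2SA) 0.66 above YAP (WT). For Oas1a the dimmer probe put YAP (2SA) 0.11 above YAP (WT), beside -0.0056 for the brighter. For Rsad2, Ifit2 and Samhd1 the share was 29.8%, 33.2% and 44.1%, so that most of their span lay above YAP (WT). All 3 genes are type I members, a class that makes up 9 of the 12 members past 2-fold. YAP (2SA) exceeded YAP (WT) by more than the spot limit of 0.21 for 8 of the 12 and was within it for the other 4.

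A pair of measured probes was available for 13 members and served as a check within an array. Both probes had the same sign in YAP (2SA) minus YAP (1SA) for 12 of 13, with a median gap of 0.09 and a widest gap of 0.58, for Herc6. Ifih1 was the exception in sign, at 0.09 and -0.06. Against YAP (WT) the signs matched for 9 of 13 members on YAP (1SA) and for 8 of 13 on YAP (2SA).

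**Figure D4:**
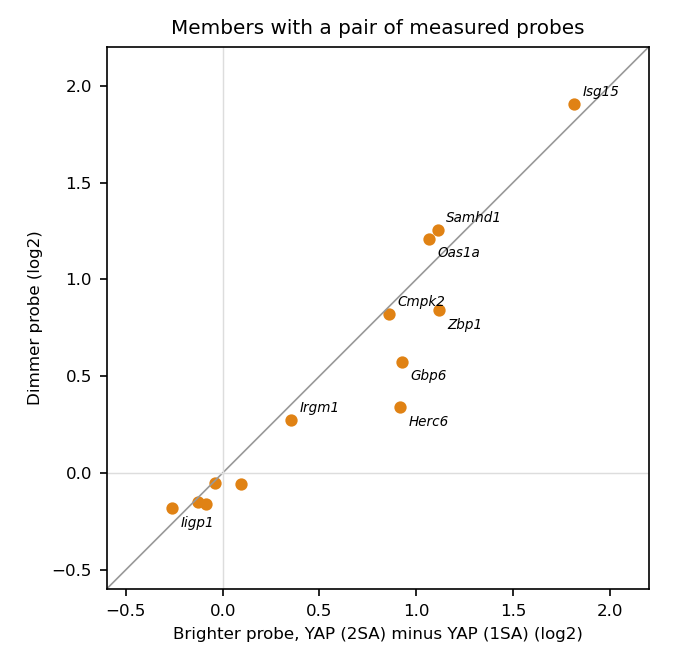
For 13 members with a pair of measured probes, the YAP (2SA) minus YAP (1SA) difference of the brighter probe is on the horizontal axis and that of the dimmer probe on the vertical axis, both in log2 units, with the line of equality. Isg15, Samhd1 and Oas1a lie near the line above 1, and Herc6 and Gbp6 lie farthest below it.

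Members with and without an ISRE core covered similar ranges. The 18 members with the core differed between the mutants by -0.35 to 1.81, with a median of 0.50 and 7 past 2-fold. The 16 without it differed by -0.13 to 1.79, with a median of 0.46 and 4 past 2-fold. A core upstream of the start was found for 15 members. In 8 of these the core nearest the start had the same letters, GAAACTGAAA, seen above for Oas1a, Gbp7, Tgtp1, Igtp and Stat2 on one strand or the other. The differences of these 8 between the mutants ran from -0.13 for Stat2 to 1.46 for Tgtp1. Oasl2, second only to Isg15, held no match to the core in its window, which says only that these letters are not there.

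A wider list of 103 genes of interferon production, signalling and response, of which 89 were measured, shows what surrounded the members. Its median difference between the mutants was 0.13, and 5 of 89 genes (5.62%) were at least 2-fold higher on YAP (2SA), against 2.47% of all genes, and 1 (1.12%) was lower, the same share as over all genes. The 5 ligands measured on every array had a median of -0.23. The Ifna1, Ifna2 and Ifna5 probes read lower on YAP (2SA) than on YAP (1SA), at -0.23, -0.59 and -0.29, and Ifnl3 differed by 0.03. These Ifna probes were dim, with intensities of 21.04 to 35.83 over the arrays, each from 1 spot an array. The lowest measured signal was 12.51 on YAP (WT), 10.26 on YAP (1SA) and 5.938 on YAP (2SA). The ligand median of -0.23 is the Ifna1 value. Whether interferon alpha transcripts differed between the liver samples was not tested. The Ifnb1 probe was not well above background on any array. The Ifng probe was well above background on YAP (WT), at 17.4, and on YAP (2SA), at 15.2, but not on YAP (1SA), where it read 7.52. The dim Ifnk probe, for a type I interferon of skin, read 40.0, 20.2 and 61.0, a difference of 1.38 between the mutants. The 10 receptors and kinases had a median of 0.09. Within the spot limit of 0.21 lay 6 of the 10, against 7420 of all 13626 measured genes. Ifnar1 and Ifnar2, which form the type I receptor, differed by 0.24 and 0.09, and Ifngr1 and Ifngr2, which form the interferon gamma receptor, by 0.53 and -0.05. Of the interferon lambda receptor, Ifnlr1 differed by 0.65 and Il10rb by 0.38.

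Of 53 other measured interferon-induced genes 40 lay higher on YAP (2SA) than on YAP (1SA), against 6216 of all 13626 measured genes. Their median was 0.17, and 7.55% were past 2-fold in that direction, against 2.47% of all genes. The 4 past 2-fold were Tgtp2 at 1.31, Phf11d at 1.28, Slfn2, a regulator of T cell quiescence, at 1.03 and Gbp9 at 1.02. Of the 89 genes measured on every array, the gene past 2-fold in the other direction was Socs3, the feedback inhibitor of cytokine receptors best known downstream of STAT3. Socs3 read 805.1 on YAP (WT), 1644 on YAP (1SA) and 709.6 on YAP (2SA). Its YAP (1SA) value was 1.11 above YAP (WT) and 1.43 above YAP (2SA), opposite in direction to most members.

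Several monocyte and macrophage markers and some T and NK cell markers moved with the members, and their part in the result was not tested. Of 10 monocyte and macrophage markers 8 were measured and Ly6c2 and Cd68 had no matched probe. YAP (1SA) gave the lowest value for 7 of the 8 (87.5%, against 34.4% of all genes), and the median difference between the mutants was 0.96. Higher by 2-fold or more on YAP (2SA) than on YAP (1SA) were Cx3cr1 (1.77), Lyz2 (1.20), Fcgr1 (1.18) and Ptprc (1.14). That is 50% of the measured markers, against 2.47% of all genes. Csf1r (0.04) and Itgam (0.01) hardly differed between the mutants. Ccr2 went the other way, lower on YAP (2SA) than on YAP (1SA) (-1.49), and its YAP (1SA) value lay 2.33 above YAP (WT). The summed level of these 8 markers, in multiples of each array's 75th percentile, was 75.7 on YAP (WT), 66.1 on YAP (1SA) and 80.7 on YAP (2SA). Such sums are weighted toward the brightest probes of a list. Of 11 T and NK cell markers 8 were measured on every array, with Cd8a and Ncr1 not well above background on any. Their median difference was 0.35, with Gzmb (2.08), Gzma (1.75) and Cd3g (1.22) past 2-fold (37.5%, against 2.47% of all genes). Cd3e (-0.26) and Cd4 (-0.24) were lower on YAP (2SA). Their summed level was 52.8, 45.5 and 43.9. Most of that sum came from the Cd4 probe, at intensities of 11525, 9485 and 9304. By contrast, 6 of the 8 markers were higher on YAP (2SA) than on YAP (1SA), against 6216 of all 13626 measured genes.

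Of 8 Kupffer cell markers, all measured, 7 were lower on YAP (2SA) than on YAP (1SA), against 7410 of all 13626 measured genes. None was highest on YAP (2SA), against 31.3% of all genes. Their median was -0.50 between the mutants, Clec4f reached -2.02, and their summed level was 204.7 on YAP (WT), 147.9 on YAP (1SA) and 102.4 on YAP (2SA). All 6 hepatocyte markers, Alb and Ttr among them, were measured on every array of the labelled tissue, with a median difference of -0.29 between the mutants and a summed level of 2377, 2531 and 2075. For 6 sinusoidal endothelial markers the median was -0.08 and the summed level 73.2, 78.3 and 60.1. The 3 measured B cell markers had a median of -0.0075 and a summed level of 1.03, 1.09 and 1.16. The 3 measured neutrophil markers had a median of 0.21 and a summed level of 2.40 on YAP (WT), 2.31 on YAP (1SA) and 2.59 on YAP (2SA). Neutrophil Cxcr2 was not well above background on any array, and Ly6g had no matched probe. The 4 plasmacytoid dendritic cell markers had a median of 0.05, with Ccr9 at 1.24, and a summed level of 180.2, 178.0 and 173.8. Nearly all of that sum came from the Siglech probe, at intensities of 51615, 48351 and 54585, and what that probe detects was not tested.

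**Figure D5:**
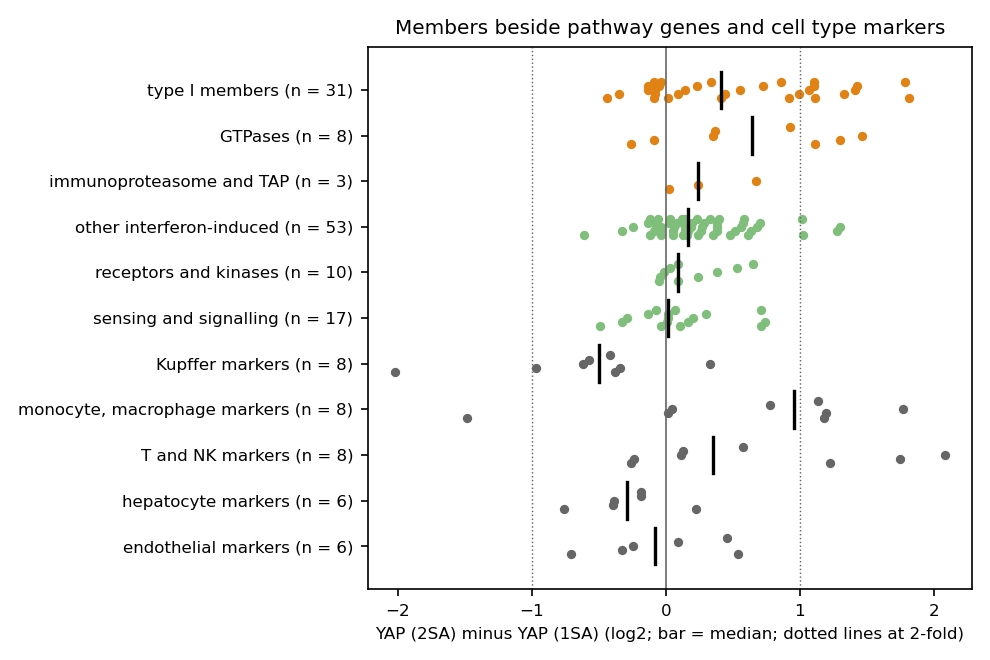
Each point is a gene measured on all 3 arrays, placed by its YAP (2SA) minus YAP (1SA) difference (log2), for members (orange), other interferon pathway genes (green) and cell type markers (grey), with a bar at each median and dotted lines at 2-fold. Medians are 0.41 for type I members, 0.65 for GTPases, 0.17 for other interferon-induced genes, 0.96 for monocyte and macrophage markers and -0.50 for Kupffer cell markers.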

How the data were processed

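Total RNA of mouse liver was labelled with Cy3, hybridised to 3 Agilent arrays on 1 slide and scanned. The deposited intensity, per the file headers, came from Agilent Feature Extraction 10.10.1.1 (design on mm9). It is linear, background-subtracted and was not put on a common scale. The authors' series matrix of intensity held the same values times 1 constant per array (3.02, 3.08 and 2.81 for YAP (WT), YAP (1SA) and YAP (2SA)), of unstated origin, and served as an alternative. Flagged non-uniform and outlier spots were left out. Spots of a probe were averaged on the log2 scale and each array's 75th percentile (276 to 320 intensity units) was subtracted. A probe was measured where at least 50% of its spots were well above background (28972 to 30784 probes an array). No spot was saturated. Names came from RefSeq accessions in a GRCm38.p6 gene table (26762 of 55681 probes matched), used for names only.

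A gene was read from its brightest probe measured on all 3 arrays. Full values are given for members at least 2-fold apart in any comparison or named for their role. They are also given for some ligands and for Tgtp2, Oas1g and Socs3. The named receptors, Phf11d, Slfn2 and Gbp9 were given by their difference between the mutants only. Other members were described by their differences. Ifit3, Cmpk2, Oas1g and single markers were named after their values were seen. The members and lists were chosen with earlier results of these data known. The median SD over repeated spots was 0.07 (log2), giving 0.10 for a difference. This covers spot error only, and the number of arrays limits the precision. Alternatives were quantile normalisation, the array median, normexp (offset 50, on median spot and background brightness), the series matrix, no filter or a stricter filter on dim probes, the mean of a gene's probes, and 1.5-fold and 3-fold thresholds. The computation was checked on simulated data with known differences. Tools were Python 3.11.15, pandas 2.3.3, numpy 2.4.6, matplotlib 3.10.9, R 4.3.3 and limma 3.58.1.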

Additional observations from a re-analysis of the deposited data

Results flagged for a closer look

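For 8 members the mutants lay on opposite sides of YAP (WT), each by more than the spot limit of 0.21 (log2), and were at least 2-fold apart. Their YAP (2SA) minus YAP (1SA) differences (log2) were 1.81 for Isg15, 1.79 for Oasl2, 1.43 for Oas3, 1.33 for Rsad2, 1.12 for Zbp1, 1.12 for Gbp3, 1.11 for Samhd1 and 1.11 for Ifit2. The class medians also lay on opposite sides of 0, by less than that limit on YAP (2SA), with a difference of 0.41 for type I members and 0.37 for interferon gamma members. Each mutant was 1 array and both were set against the same YAP (WT) array, so the difference between the mutants was not tested.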

How the results depend on the processing

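The count of members past a threshold changed mainly with the threshold. Lower on YAP (1SA) than on YAP (WT) were 1 member at 3-fold (0.213% of all genes) and 10 at 1.5-fold (4.67%), beside 6 at 2-fold. Higher on YAP (2SA) than on YAP (1SA) were 2 at 3-fold (0.631%) and 18 at 1.5-fold (6.99%), beside 12, and higher on YAP (2SA) than on YAP (WT) were 6 at 1.5-fold (3.79%), beside 0. The fewer or more genes follow from the threshold itself. Under the other settings the 12 became 9 to 14 and the 6 became 4 to 6. The type I median between the mutants ran from 0.33 to 0.49 and the interferon gamma median from 0.35 to 0.44. No class median or member past 2-fold changed sign. Nearer 0, 8 of the 129 differences of single members changed sign under some setting, all of them at most 0.16 in size. Of 140 comparisons of a member past 2-fold with its value under another setting, 140 kept the direction and 134 stayed past 2-fold. The others were Tgtp1 in both comparisons, Oas3, Ifit2 and Oas1a under normexp, and Zbp1 under the mean of its probes. Normexp gave 1.11% of all genes 2-fold higher on YAP (2SA) than on YAP (1SA), beside 2.47%. The stricter filter left 37 members. The series matrix centred on its 75th percentile equals the values used here by construction, and its uncentred form was added after seeing the data. No paired analysis was possible because a single array stood for every group. For the same reason no array could be left out, and the single slide could not be a block. Signal over background limits the dim probes, among them those of Tgtp1, Oas3 and the interferon genes.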
